A study of Mus musculus with 6 samples.

Results

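The complement genes described here are components and regulators of the complement cascade, compared between mouse dorsal root ganglion (DRG) and spinal cord (SC). The list named 9 genes, C1qa, C1qb, C1qc, C3, C4b, Cd55, Cd59a, Serping1 and C3ar1, and a probe set was taken where the platform annotation gave it exactly 1 gene and that gene was on the list. This selected 14 probe sets of 7 genes, of 45101 probe sets on the array. No probe set met the rule for C3 or C4b. The probe set that carries the name of C4b also carries that of C4a, and a further probe set names Cd55 together with Cd55b. Neither was used, and C3 and C4b were not analysed here.

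Total RNA came from the lumbar DRG of both sides (3 arrays) and from the lumbar spinal cord (3 arrays) of male C57BL/6J mice aged 3 months. Each array held material pooled from 4 mice, so the spread between arrays is a spread between pools and not between single animals. The labels call the 3 samples of a tissue independent and give both tissues the same strain, sex and age, and name no treatment or transgene.

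Complement is a set of proteins that tag targets for removal and can lyse membranes. The classical pathway starts when C1q, a hexamer of trimers built from the chains C1qa, C1qb and C1qc, binds a target and activates the proteases C1r and C1s, which cleave C4 and C2 to form a convertase for C3. In the central nervous system C1q is made largely by microglia, and it is known there for tagging synapses during pruning. Host cells limit the cascade with Serping1, the C1 inhibitor, which blocks C1r and C1s, with Cd55, which speeds the decay of convertases, and with Cd59a, which blocks assembly of the lytic pore. C3ar1 is the receptor for the C3 fragment C3a.

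The genes C1qb, C1qc and C1qa lie next to each other, in this order, on mouse chromosome 4, between Ephb2 and Epha8. The RefSeq promoter windows of C1qb and C1qc are shown because these neighbouring genes differed between the tissues in the same direction, and that of Cd59a because it holds the same motif while Cd59a differed the other way. Each window runs from 250 bases before to 50 bases after the annotated start, 5′ to 3′ on the gene's strand, in build GRCm38.p6. Capitals mark the motif GAGGAA, a core sequence bound by the myeloid transcription factor PU.1, or its reverse complement TTCCTC. The C1qb window is chr4:136886151-136886450 on the minus strand, the C1qc window chr4:136892865-136893164 on the minus strand and the Cd59a window chr2:104095551-104095850 on the plus strand.
C1qb: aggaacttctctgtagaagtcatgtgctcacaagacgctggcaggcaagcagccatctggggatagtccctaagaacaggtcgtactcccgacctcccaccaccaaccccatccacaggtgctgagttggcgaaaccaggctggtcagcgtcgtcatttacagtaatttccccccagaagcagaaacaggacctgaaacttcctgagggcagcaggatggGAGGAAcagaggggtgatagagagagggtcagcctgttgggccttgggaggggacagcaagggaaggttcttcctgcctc
C1qc: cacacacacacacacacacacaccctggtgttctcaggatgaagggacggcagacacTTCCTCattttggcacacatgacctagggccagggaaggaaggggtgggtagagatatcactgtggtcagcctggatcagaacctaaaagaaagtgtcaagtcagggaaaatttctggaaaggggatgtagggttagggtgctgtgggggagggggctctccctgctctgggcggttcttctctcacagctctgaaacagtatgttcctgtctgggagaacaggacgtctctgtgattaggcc
Cd59a: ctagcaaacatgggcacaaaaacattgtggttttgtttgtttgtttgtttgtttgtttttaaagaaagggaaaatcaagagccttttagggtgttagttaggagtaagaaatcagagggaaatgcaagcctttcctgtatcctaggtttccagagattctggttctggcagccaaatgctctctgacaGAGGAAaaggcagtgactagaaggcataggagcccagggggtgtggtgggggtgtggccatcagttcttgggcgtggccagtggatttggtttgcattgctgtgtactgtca
Promoter windows were found for 5 of the 7 measured genes. The motif occurred once each in C1qb, on the gene's strand with its first base 30 bases before the start, in C1qc, on the other strand 193 bases before the start, and in Cd59a, on the gene's strand 62 bases before the start. It was not in the windows of C3ar1 and Cd55. Of all 32851 promoter windows of this length, 28.3% held the motif on at least 1 strand. A match describes the letters only.

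The arrays were checked against tissue markers. All 8 measured sensory neuron markers were higher in DRG, all 9 astrocyte and all 7 oligodendrocyte markers were higher in SC, and 7 of 8 spinal neuron markers were higher in SC. The remaining one, Chat, was not called. Values below are array signals recovered from the deposited ratios, and the tissue difference is DRG minus SC on log2(signal + 16), tested with limma and called at a Benjamini-Hochberg adjusted p under 0.05 over 45016 probe sets. The median difference over all probe sets was 0.08 with the deposited array scaling. It was 0.0056 with quantile normalization, and −0.18 for signals taken before that scaling. The 95th percentile of 81 probe sets for 53 genes of other organs ran from 160 to 232 on the 6 arrays. It is called the background level and marks signals that a gene without expression could show. Of these 53 genes, 5 were themselves called higher in DRG and 0 higher in SC, against 31.8% and 9.68% of all genes. A call on signals under this level therefore need not mean expression. Signals of different probe sets are not comparable as levels.

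Among the called genes of the list, those of C1q and those of inhibitors differed in opposite directions. The other complement genes, given below, did not split by role. Of these, C2, a protease, was called higher in DRG and Vtn, an inhibitor, higher in SC. The list was chosen with earlier results of these data known, and C3 and C4b were not analysed. The C1q genes are neighbours and encode chains of the same complex, so they are not separate examples of a role. On the deposited scaling the 3 genes of C1q were higher in SC by up to 2.17-fold and the 3 inhibitors higher in DRG by 2.73-fold or more. C3ar1 stayed under the background level on every array. Of the 14 probe sets, 6 were called higher in DRG and 5 higher in SC. Over the whole array 22.7% of probe sets were called higher in DRG and 9.78% higher in SC. With each gene represented by its probe set of highest mean log2 value, 3 of 7 genes were called higher in DRG, against 31.8% of 18189 genes, and 3 of 7 higher in SC, against 9.68%. The median difference of the 7 genes was 0.01, against 0.18 over all genes. The whole-array split depended on the scaling, with 10197 probe sets called higher in DRG and 4403 higher in SC on the deposited scaling, 6717 and 6457 under quantile normalization, and 6002 and 8965 before the array scaling. On 6 probe sets every DRG array was above every SC array, against 28.4% of the whole array, and on 5 every SC array was above every DRG array, against 15.1%. The calls and directions of the 11 called complement probe sets were the same on all 3 scalings, but the order of sizes was not. On the deposited scaling Cd59a 1418710_at was at 1.43 and C1qb 1417063_at at −1.06. They were at 0.91 and −1.32 after quantile normalization, and at 1.06 and −1.41 before the array scaling.

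**Figure D1:**
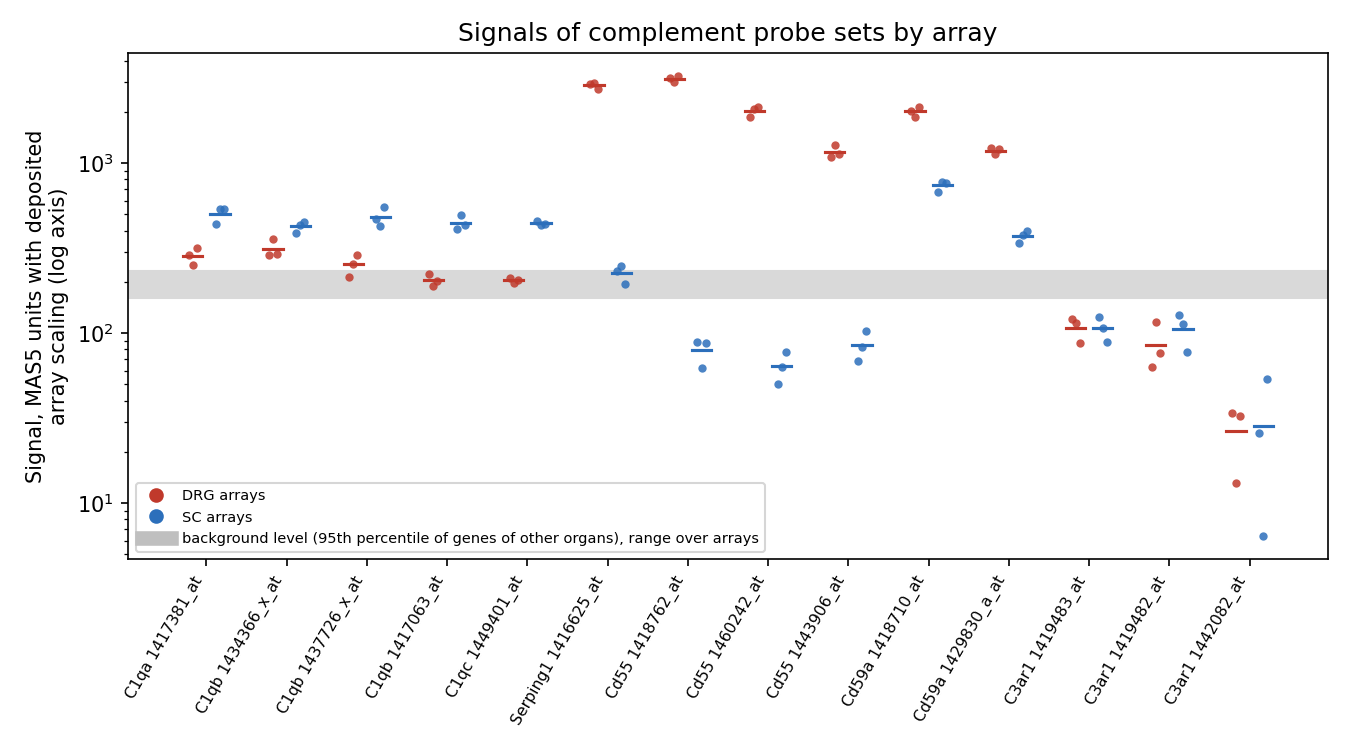
Signals of the 14 complement probe sets on each array, on a log axis in MAS5 units with the deposited array scaling; red points are the 3 DRG arrays, blue points the 3 SC arrays, lines their means, and the grey band the range over arrays of the background level (160 to 232). C1q probe sets are higher on every SC array, those of Serping1, Cd55 and Cd59a are higher on every DRG array, and all C3ar1 points lie below the band.

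C1qa encodes the A chain of C1q. Its probe set 1417381_at had signals of 287, 250.0 and 316 in DRG, against 439, 534 and 535 in SC. Every SC array lay above every DRG array. The mean was 284 ± 33.2 in DRG and 503 ± 55.4 in SC (SD, n = 3 each), a level 1.77-fold higher in SC. The log2 difference was −0.79 with a standard error of 0.12 (limma adjusted p = 0.000648).

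C1qc encodes the C chain. Its probe set 1449401_at had signals of 211, 198 and 204 in DRG, against 457, 430.3 and 434 in SC. The spread within a tissue was small, and the tissues lay far apart. The mean was 204 ± 6.59 in DRG and 440.5 ± 14.2 in SC (SD, n = 3 each), 2.16-fold higher in SC, with a log2 difference of −1.05 and a standard error of 0.09 (limma adjusted p = 1.92e-05). In DRG, 2 of 3 arrays were above the background level, so the DRG signal was close to what a gene without expression could show.

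C1qb, the B chain, was measured by 3 probe sets that agreed in direction and differed in size. Probe set 1417063_at had signals of 222, 189 and 201 in DRG, against 410, 491 and 430.0 in SC, 2.17-fold higher in SC, with a log2 difference of −1.06 (limma adjusted p = 5.85e-05). Its DRG signal was above the background level on 2 of 3 arrays. Probe set 1437726_x_at had signals of 214, 256 and 288 in DRG, against 471, 427 and 548 in SC, with a log2 difference of −0.89 (limma adjusted p = 0.000602). Probe set 1434366_x_at had 287, 359 and 292 in DRG, against 388, 431 and 452 in SC, 1.36-fold higher in SC. The tissues did not overlap on any of the 3 probe sets. The suffix of the last 2 marks probes that can match several transcripts.

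The difference of 1434366_x_at, the brightest C1qb probe set, was −0.42 (limma adjusted p = 0.0174), the smallest of the 3, and lay close to the threshold. With 1 array left out it ran from −0.52 to −0.37. The call was lost without DRG replicate 1 (limma adjusted p = 0.0590), without DRG replicate 3 (0.0600), without SC replicate 2 (0.0620) and without SC replicate 3 (0.0687), with the logarithm of the deposited ratio (0.0607) and without an intensity trend (0.0607), with the lowest adjusted p over the alternatives being 0.00106. Within each array the log2 ratio of 1417063_at to 1434366_x_at was −0.35, −0.87 and −0.51 in DRG, against 0.08, 0.18 and −0.07 in SC. The tissue differences of the probe sets thus differed by −0.64, with every DRG array below every SC array. That of 1437726_x_at to 1434366_x_at differed by −0.47. For both, the exact two-sided permutation test gave p = 0.1, the smallest that 3 arrays against 3 allow, and 0.1 after adjustment over the 3 pairs of probe sets compared.

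Markers of microglia and macrophages were given beside C1q because these cells are its main known source in nervous tissue. Among 15 measured markers, 1 was called higher in DRG and 8 higher in SC, against 31.8% and 9.68% of all genes. Their median log2 difference was −0.38. Their summed signal was 2950 to 3379 in DRG and 4986 to 5423 in SC, and the ranges did not overlap. Csf1r, the receptor that these cells need to survive, had signals of 948, 985 and 1036 in DRG, against 1617, 1714 and 1457 in SC, a log2 difference of −0.68 (limma adjusted p = 0.000133). Ctss, a lysosomal protease, was at −1.62 (limma adjusted p = 3.24e-06) and Laptm5, a lysosomal membrane protein, at −0.53 (limma adjusted p = 0.00609). Of the microglial genes picked after the values were seen, P2ry12 was above the background level on no DRG array and at least 1.46-fold higher in SC (limma adjusted p = 8.48e-05). Tmem119 was at −0.83 (limma adjusted p = 0.00102). Of the 15 markers 6 were not called. Among them were Trem2 at −0.04 (limma adjusted p = 0.945), Aif1 at −0.20 (0.632) and Fcrls at −0.24 (0.521). In all, 7 of the 15 were above the background level on no array. In bulk tissue, fewer cells of a type and less RNA per cell cannot be told apart. The part of these cells in the C1q difference was not tested.

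Markers of perivascular and tissue macrophages went the other way. Of 9, 6 were called higher in DRG and 1 higher in SC, against 31.8% and 9.68% of all genes. Across these 9 the median log2 difference was 0.94. Summed signals were 1207 to 1371 in DRG and 532 to 651 in SC. Pf4 had signals of 364, 304 and 359 in DRG, against 132, 111 and 166 in SC, at least 1.83-fold higher in DRG (limma adjusted p = 0.000194). Bounds for Mrc1, the mannose receptor, and F13a1, a coagulation factor subunit, were at least 1.33-fold and at least 1.28-fold higher in DRG. None of the 9 markers was above the background level on any SC array, and 6 were not above it in either tissue. The macrophage marker Adgre1 was the 1 gene of the first list called higher in DRG, at 0.55 (limma adjusted p = 0.0121). It was not called after quantile normalization (0.0663), before the array scaling (0.283), without DRG replicate 3 (0.0503) or without SC replicate 2 (0.0507), and its lowest adjusted p was 0.00603.

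**Figure D2:**
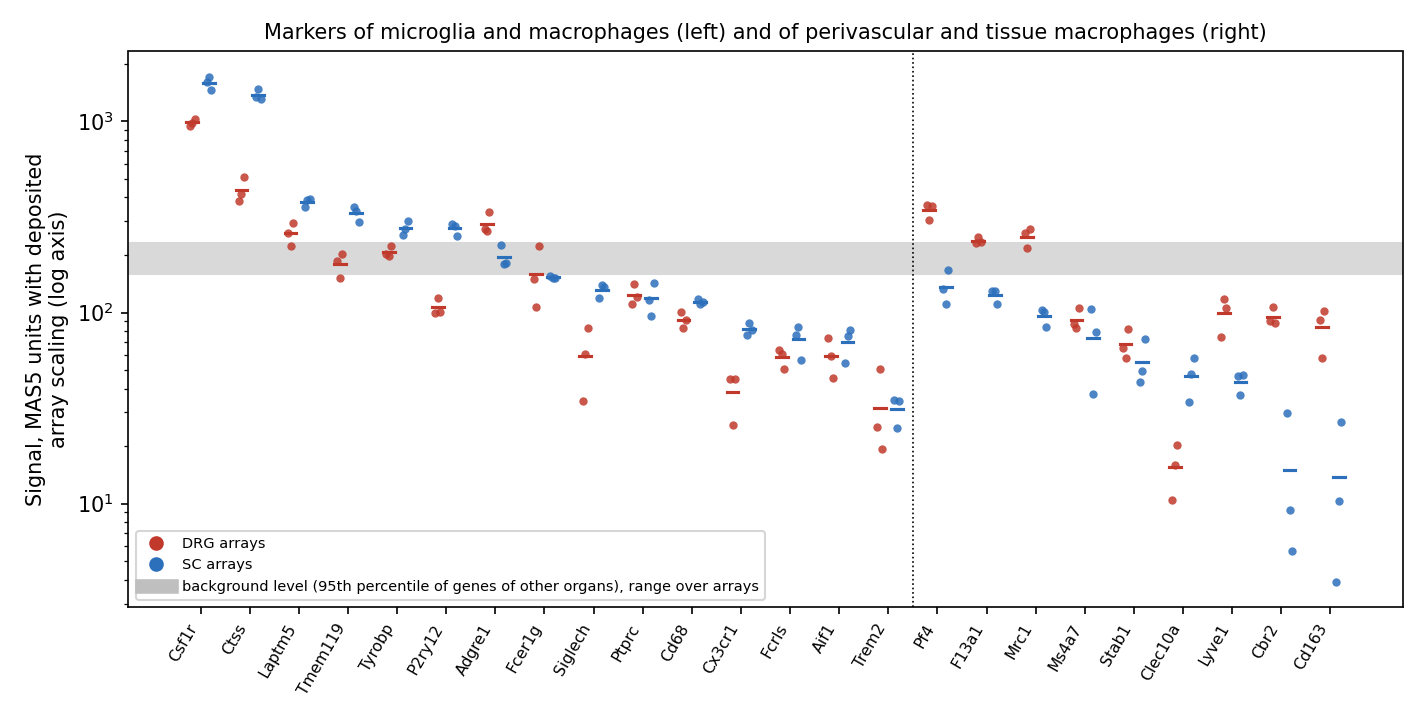
Signals on each array, on a log axis in MAS5 units with the deposited array scaling, of 15 markers of microglia and macrophages (left of the dotted line) and 9 of perivascular and tissue macrophages (right); red points are DRG arrays, blue points SC arrays, lines their means, and the grey band the range of the background level. On the left 8 genes were called higher in SC, among them Csf1r and Ctss, and on the right 6 were called higher in DRG, all with SC signals below that level.

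Serping1, the C1 inhibitor, was much higher in DRG. Its probe set 1416625_at had signals of 2907, 2953 and 2704 in DRG, against 231, 247 and 194 in SC. The groups were separated by a wide gap, and the SC signal was above the background level on 2 of 3 arrays. The mean was 2855 ± 132 in DRG and 224 ± 27.3 in SC (SD, n = 3 each), 12.8-fold higher in DRG, with a log2 difference of 3.58 and a standard error of 0.10 (limma adjusted p = 1.69e-08).

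Cd55, the decay-accelerating factor, was higher in DRG on all 3 of its probe sets. Probe set 1418762_at had signals of 3143, 3009 and 3246 in DRG, against 88.3, 62.5 and 86.7 in SC. No SC array was above the background level, so the fold is a lower bound, the DRG mean against that level, of at least 16.8-fold (limma adjusted p = 8.13e-09). Probe set 1460242_at had 1853, 2086 and 2131 in DRG, against 49.9, 63.2 and 77.7 in SC, at least 10.8-fold higher in DRG (limma adjusted p = 2.26e-08). Probe set 1443906_at had 1085, 1276 and 1125 in DRG, against 68.6, 83.3 and 103 in SC, at least 6.21-fold higher (limma adjusted p = 1.15e-07). On all 3 probe sets the DRG arrays were well above that level and the SC arrays below it.

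Cd59a, the inhibitor of the lytic pore, was expressed above the background level on every array of both tissues. Probe set 1418710_at had signals of 2025, 1869 and 2134 in DRG, against 674, 775 and 762 in SC, 2.73-fold higher in DRG, with a log2 difference of 1.43 and a standard error of 0.08 (limma adjusted p = 1.38e-06). Probe set 1429830_a_at had 1224, 1124 and 1202 in DRG, against 339, 376 and 399 in SC, 3.19-fold higher in DRG, with a log2 difference of 1.63 (limma adjusted p = 6.63e-07). The tissues did not overlap on either. The differences of the 2 probe sets differed by 0.20 (exact two-sided permutation test, p = 0.1, the smallest possible). The difference of 1418710_at was 1.06 before the array scaling and, at its lowest, 0.91 after quantile normalization.

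Markers of sensory neurons, Schwann cells and fibroblasts were, like the inhibitors, mostly called higher in DRG. Over all genes 31.8% were called higher in DRG and 9.68% higher in SC on the deposited scaling. On the other 2 scalings the whole-array counts, given above, held fewer calls higher in DRG and more higher in SC. Of 7 endothelial markers, 2 were called higher in DRG and 2 in SC. These counts were 1 and 2 with quantile normalization, and 0 and 3 before the array scaling. Of 6 adipocyte markers, 3 were called higher in DRG and 0 in SC. Sensory neuron markers had summed signals of 34941 to 36016 in DRG and 649 to 791 in SC. Those of Schwann cells were at 17405 to 18190 in DRG and 4399 to 5048 in SC, with 6 of 7 called higher in DRG, and those of fibroblasts at 15200 to 16636 in DRG and 2919 to 3177 in SC, with 7 of 9 called higher in DRG. Dcn, a matrix proteoglycan of fibroblasts, had a log2 difference of 3.45 and Pmp22, a protein of peripheral myelin, of 1.75. Of 5 satellite glia markers 3 were called higher in DRG and 2 in SC, or 2 and 2 on each of the other 2 scalings. The part of any of these cells in the differences of Serping1, Cd55 and Cd59a was not tested. Of 6 blood cell markers, 4 were called higher in DRG, or 2 on each of the other 2 scalings. They had summed signals of 2218 to 3715 in DRG and 659 to 2370 in SC, which overlapped. Of 5 measured markers of liver, the main source of plasma complement, none was above the background level on any array. Liver genes such as Cyp2e1 were among those that set this level, so liver markers were unlikely to exceed it. Plasma complement was not tested.

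C3ar1, the C3a receptor, was not called on any of its 3 probe sets. Probe set 1419483_at had signals of 121, 114 and 87.2 in DRG, against 125, 106 and 88.8 in SC, with a log2 difference of 0.01 and a standard error of 0.20 (limma adjusted p = 0.980). Probe set 1419482_at had 62.7, 117 and 76.0 in DRG, against 127, 114 and 77.1 in SC, with a log2 difference of −0.28 and a standard error of 0.26 (limma adjusted p = 0.491). Probe set 1442082_at had 34.0, 13.2 and 32.6 in DRG, against 25.7, 6.40 and 53.3 in SC (limma adjusted p = 0.958). The tissues overlapped on all 3. None of the 18 signals was above the background level, and no difference in this receptor was detected on these arrays. With signals this low, a missing call does not show equal expression.

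**Figure D3:**
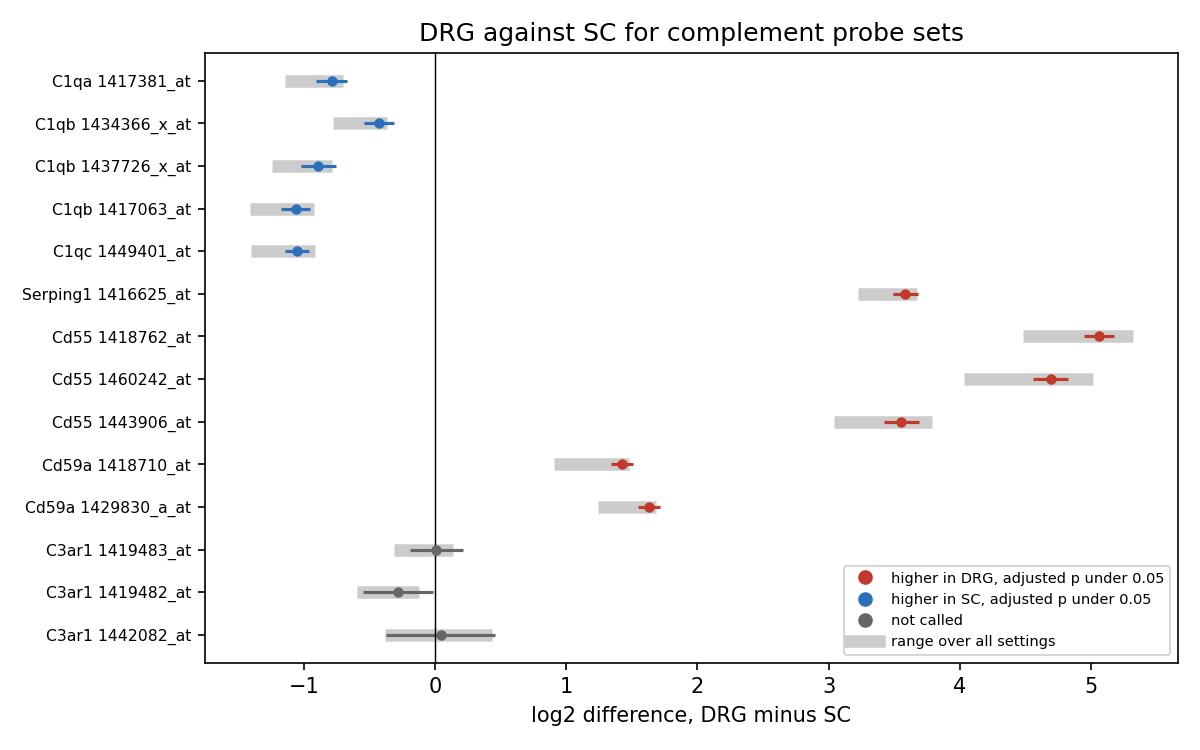
Log2 difference, DRG minus SC, of each complement probe set (point, with its standard error as a line), coloured by call, with the range over all settings tried as a grey bar. The 5 C1q probe sets lie below 0, from −1.06 to −0.42, the 6 of the inhibitors lie above 0, where the sizes of the 3 Cd55 points rest on SC signals under the background level, and those of C3ar1 lie around 0.

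Most of the rest of the cascade was at or under the background level. Of 44 other complement genes measured, 9 were called higher in DRG and 4 higher in SC, against 31.8% and 9.68% of all genes, and their median log2 difference was 0.10. In all, 32 of the 44 were above that level on no array. With quantile normalization the calls were 7 and 7, beside 6717 and 6457 of 45016 probe sets over the whole array. With signals before array scaling they were 7 and 8, beside 6002 and 8965 of 45016 probe sets. Shares by gene were not counted on these scalings.

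Among 13 genes that start the cascade or form convertases, 3 were called, each higher in DRG, against 31.8% of all genes. For signals before array scaling 1 more, Cfp, which encodes properdin and was picked after its values were seen, was called higher in SC (limma adjusted p = 0.0266, against 0.430 on the deposited scaling). C2, the protease part of the classical C3 convertase, had signals of 445, 424 and 312 in DRG, against 91.1, 34.5 and 96.7 in SC, at least 2.08-fold higher in DRG (limma adjusted p = 0.000271). C1s1 and C1ra encode the proteases of C1. C1s1 had signals of 164, 174 and 131 in DRG, against 13.9, 52.0 and 26.7 in SC (limma adjusted p = 0.000997). C1ra had 58.4, 91.3 and 114 in DRG, against 6.48, 37.5 and 24.8 in SC (limma adjusted p = 0.0127), and its call was lost without DRG replicate 3 (0.0508) and with the logarithm of the deposited ratio (0.0596), from a lowest value of 0.00614. For both, every DRG array was above every SC array and none was above the background level, so no fold is given. Some genes of other organs were also called in this direction, as given above.

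Of 16 regulators outside the list, 4 were called higher in DRG and 2 higher in SC, against 31.8% and 9.68% of all genes. The counts were 3 and 4 with quantile normalization, and 4 and 4 for signals before array scaling, where the whole-array counts given above also moved. Csmd1, a large membrane protein with complement control domains, had signals of 488, 357 and 500 in DRG, against 89.8, 137 and 136 in SC, at least 2.38-fold higher in DRG (limma adjusted p = 6.07e-05). Its relative Csmd3 had 184, 180 and 198 in DRG, against 421, 387 and 374 in SC, with a log2 difference of −1.01 (limma adjusted p = 4.83e-05). Vtn, which encodes vitronectin, an inhibitor of the terminal complex, had 352, 388 and 426 in DRG, against 910, 884 and 762 in SC, with a log2 difference of −1.10 (limma adjusted p = 2.60e-05). These 3 calls were the same on all 3 scalings.

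Of the other regulators called higher in DRG, C1qbp, a mainly mitochondrial protein that can bind C1q, was at 0.82 (limma adjusted p = 5.09e-05), or 0.23 and not called after quantile normalization (0.0625). Its lowest adjusted p was 7.17e-06. Cr1l, the rodent membrane regulator also known as Crry, was at 0.67 (limma adjusted p = 0.000388), and is named because the 4 called genes are few. Cpn1, a subunit of the carboxypeptidase that inactivates C3a, was called (limma adjusted p = 0.0105) but stood above the background level on no array. Clu, which encodes clusterin, picked after the values were seen, had a direction that depended on the scaling. It was at 0.11 and not called on the deposited scaling (limma adjusted p = 0.251), −0.46 under quantile normalization (0.000582) and −0.26 before the array scaling (0.0117).

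Of 9 receptors, 2 were called higher in DRG and 2 higher in SC, against the same shares of all genes. The counts were 1 and 3 with quantile normalization, and 0 and 3 for signals before array scaling, where the whole-array counts given above also moved. Lrp1, an endocytic receptor, had signals of 543, 491 and 626 in DRG, against 1309, 1297 and 1349 in SC, with a log2 difference of −1.23 (limma adjusted p = 6.97e-06). Itgam, the alpha chain of complement receptor CR3 and a myeloid gene, had 30.5, 8.56 and 11.0 in DRG, against 103, 148 and 132 in SC (limma adjusted p = 0.000425), all under the background level. Cd93, first described as a C1q receptor, had 231, 227 and 237 in DRG, against 173, 101 and 120 in SC, at least 1.24-fold higher in DRG (limma adjusted p = 0.00877), and was not called before the array scaling (0.0937). Its lowest adjusted p was 0.00179. Calr, an endoplasmic reticulum chaperone that can bind C1q, was at 0.45 (limma adjusted p = 0.000577), at −0.13 under quantile normalization (0.118) and at 0.08 before the array scaling (0.367, the highest over its alternatives, from 0.000115). Its direction was therefore not settled.

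Of 6 genes of the terminal pathway, which builds the lytic pore, 0 were called by limma and 0 had an unadjusted p under 0.05, against 48.7% of all genes. None was above the background level on any array. C9, the brightest, had signals of 78.1, 22.2 and 21.3 in DRG, against 85.8, 56.4 and 79.8 in SC (limma adjusted p = 0.155). Without DRG replicate 1 it was called (limma adjusted p = 0.0121, the lowest over its alternatives, up to 0.373).

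**Figure D4:**
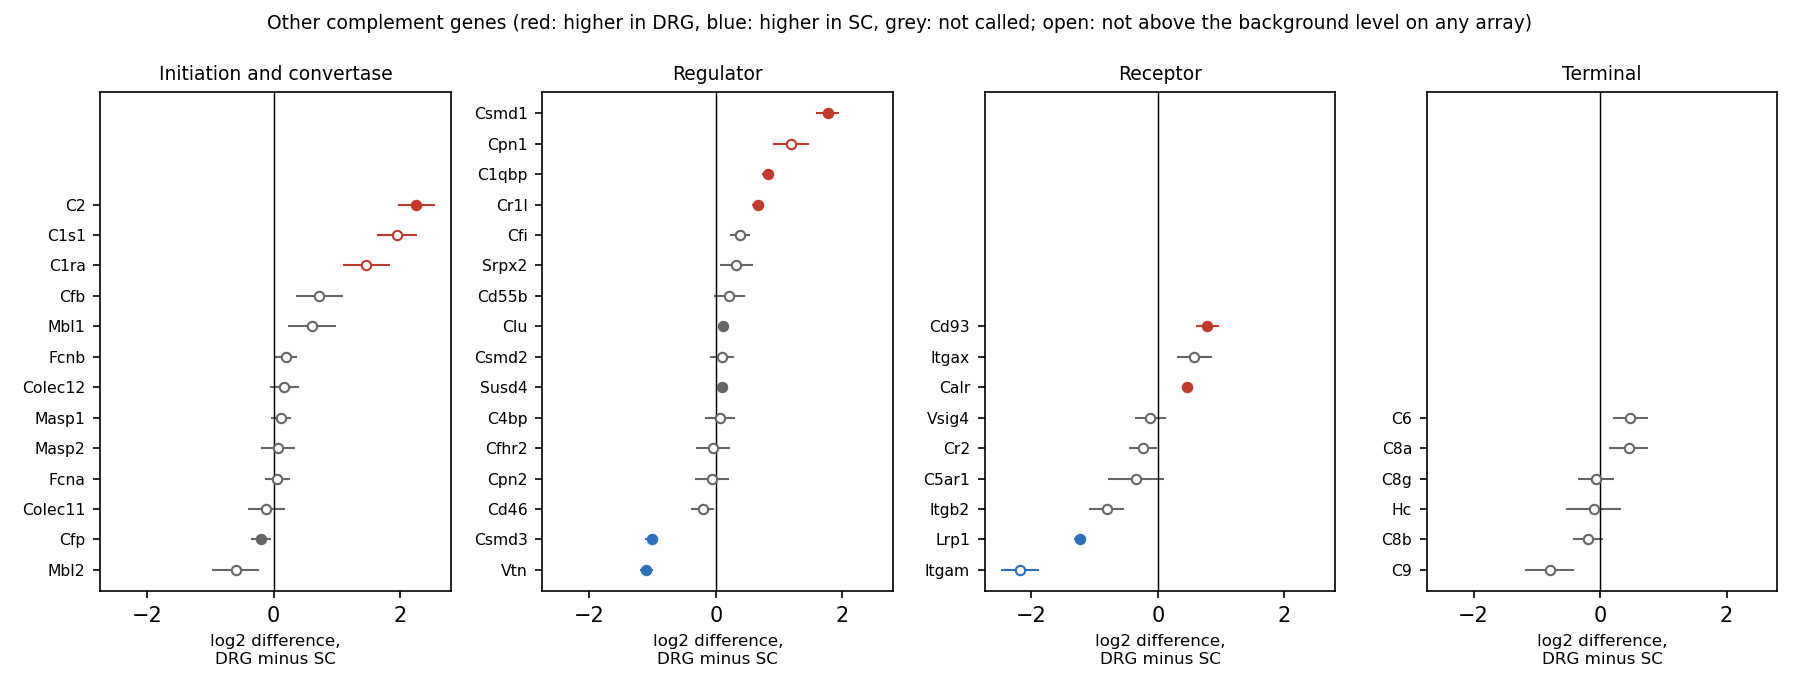
Log2 difference, DRG minus SC, of 44 other complement genes in 4 groups by role (points, with the standard error as a line); red marks genes called higher in DRG, blue genes called higher in SC, grey genes not called, and open points genes above the background level on no array. Filled points with a call include C2, Csmd1, C1qbp, Cr1l, Calr and Cd93 to the right and Lrp1, Vtn and Csmd3 to the left.

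The genes whose pattern over the 6 arrays was most like that of the mean of C1qa, C1qb and C1qc, by Pearson's r among 6603 genes over the background level on all 6, were Npy (r = 0.999), Chic1 (0.998) and Pdk2 (0.998). Npy had signals of 234, 234 and 241 in DRG, against 491, 542 and 540.1 in SC. Those most like Serping1 were Asns, Aacs and Ncoa7, each with r = 1.000 after rounding. The 6 points of each correlation come from 2 tissues and share the tissue difference, and the values are given as a description.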

How the data were processed

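Total RNA of 3 DRG and 3 SC pools was measured on 3' expression arrays. The submitters' processing notes name MAS5, without a version. The authors deposited linear ratios, and how they were formed was inferred from the numbers themselves. The median over the 6 arrays was 1 for 91.8% of probe sets (tolerance 1e-05), and the values of those with a lower median lay on a regular grid for each array. A ratio was taken as a MAS5 signal over an array factor and the probe set's median. Signals were recovered as the smallest multiple that puts all 6 values on MAS5 steps of 0.1, for all but 21 of 45101 probe sets. In 5000 simulated probe sets, 98.6% were recovered exactly and 1.36% up to a common factor. Such a factor does not move the ratio between tissues. It does change the signal, and so its place against the background level and the weight of the pseudocount. Factors per array ran from 84.5 to 89.5 in DRG and from 111 to 113 in SC, and their effect was kept as the deposited array scaling, with signals rescaled to their geometric mean. Before this scaling the mean signal, with extremes left out, was already alike on the arrays, from 247.2 to 247.5. Signals before the array scaling are therefore not unscaled signals.

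After 64 controls were left out, 45016 probe sets were fitted with limma 3.58.1 in R 4.3.3 (lmFit, eBayes with an intensity trend, two-sided, Benjamini-Hochberg adjustment), on log2 of the signal plus a pseudocount of 16, which makes differences of dim genes smaller. The fit was tested on simulated data. Probe sets took the platform annotation, checked by Entrez identifier against RefSeq GRCm38.p6: 34945 had 1 gene, 932 several and 9160 none. No filter on low signals was used. A fold is given as a lower bound where no array of a tissue was above the background level. Named genes were all listed members, and of the other complement genes in each of 4 groups up to 3 called genes in each direction with the largest difference, or the brightest gene where none was called; of marker lists up to 3 of the brightest. Exceptions are marked. The members and lists were chosen with earlier results of these data known. The number of arrays limits the precision. Other steps ran in numba 0.67.0, pandas 2.3.3 and numpy 2.4.6 under Python 3.11.15, with plots from matplotlib 3.10.9. The alternatives were other scalings, pseudocounts of 1 and 64, filters, 1 probe set a gene, a fit without trend, a replicate block and leaving out each array.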

Additional observations from a re-analysis of the deposited data

How the results depend on the processing

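The number of complement probe sets called higher in DRG was 6 and higher in SC was 5 with quantile normalization, with signals before array scaling, with pseudocounts of 1 and 64, and above the median level. It was 6 and 3 without probe sets that can match several transcripts, which leaves 12, and 3 and 3 with 1 probe set a gene, which leaves 7. Leaving out each array gave 6 and 4 to 5. By genes, calls higher in SC were 2 instead of 3 wherever the brightest C1qb probe set lost its call. Arrays of both tissues share replicate numbers, and the correlation of deviations of same-numbered arrays ran from −0.021 to 0.0037. That does not show whether same-numbered pools came from the same mice. With replicate number as a replicate block, 6 and 5 probe sets were called, and the block changed no call of a complement probe set. Other complement genes higher in SC numbered 7 under quantile normalization and 8 before the array scaling, against 4. Over the whole array, calls higher in DRG numbered 6717 and 6002 and, before the array scaling, calls higher in SC numbered 8965. With 1 probe set a gene they were 5953 and 1859, since fewer probe sets are tested. For C3ar1, 1419483_at was at −0.0011 after quantile normalization, −0.31 before the array scaling and from −0.10 to 0.13 with an array left out, and 1442082_at was at −0.18 before the array scaling, −0.0067 with a pseudocount of 64 and from −0.38 to 0.44 with an array left out, none called. Signals before the array scaling differ from those with it only by the array factors, which were lower in DRG than in SC. Apart from these factors and the smaller numbers of probe sets, the cause of these changes was not tested. Signals near the background level limit C1qb and C1qc in DRG and Serping1 in SC. Signals under it limit Cd55 in SC and C3ar1 in both tissues.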
